A study of Mus musculus with 8 samples.

Results

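The liver both burns glucose and makes it, and 39 genes of those opposing routes were followed here in mouse livers labelled *Srsf10-kd* and *Ctrl*. They were taken by name from a list of 39 symbols for glycolysis, gluconeogenesis, glycogen and fructose metabolism, out of 45706 Ensembl gene identifiers in the deposited counts. All 39 had a row, and all 39 passed the filter on low counts that left 15491 genes. By role, 5 members act in glucose uptake and its first phosphorylation, 13 in glycolysis, 3 in the fructose 2,6-bisphosphate switch, 6 in gluconeogenesis, 11 in glycogen metabolism and 1 in fructose metabolism.

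The samples were whole livers of 8 male mice, 4 in each group. The genotype labels read Srsf10KD and WT, and both groups carry the strain label C56B6/J, where the study's methods name C57BL/6J. Every mouse had received an adeno-associated virus of serotype 2/8 through the tail vein at 6 weeks of age and, from 4 weeks later, a high-fat diet (HFD) with 60% of calories from fat for 12 weeks. In the *Srsf10-kd* group the virus expressed a short hairpin RNA in a mirE microRNA backbone against *Srsf10*, which encodes a splicing factor, and in the *Ctrl* group a control hairpin. In both groups the CBA promoter, which is not restricted to hepatocytes, drove the cassette together with GFP. Feeding state and time of day at collection, which move many of these transcripts, were not given in the sources used here.

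Glycolysis breaks glucose down to pyruvate, and gluconeogenesis runs back from pyruvate to glucose through enzymes of its own at the irreversible steps. In the liver, feeding and insulin favour glycolysis and glycogen synthesis, whereas fasting and glucagon favour glycogen breakdown and the release of new glucose. Several key enzymes exist as isoenzymes from separate genes, with a liver form and forms used by muscle, brain or most other cells.

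The promoters of 4 members are shown because these genes stand at the control points that the values below turn on. *Pklr* encodes liver pyruvate kinase, the last step of glycolysis, *Pck1* encodes cytosolic phosphoenolpyruvate carboxykinase, *G6pc* encodes the glucose-6-phosphatase that releases free glucose, and *Pcx* encodes pyruvate carboxylase, the entry to gluconeogenesis. The sequences are from RefSeq on GRCm38.p6, whose table held 37 of the 39 members, and each runs from 250 bases before a transcript start to 50 bases after it, on the plus strand. They lie at chr3:89136373-89136672, chr2:173152823-173153122, chr11:101367466-101367765 and chr19:4510222-4510521. The first is the downstream of 2 *Pklr* starts in the table, and the last is the upstream of 2 *Pcx* starts. For both genes the window shown was chosen for holding the first motif marked in it. The presence of that motif there was thus fixed by the choice. Which start is used in these livers was not tested.
Pklr: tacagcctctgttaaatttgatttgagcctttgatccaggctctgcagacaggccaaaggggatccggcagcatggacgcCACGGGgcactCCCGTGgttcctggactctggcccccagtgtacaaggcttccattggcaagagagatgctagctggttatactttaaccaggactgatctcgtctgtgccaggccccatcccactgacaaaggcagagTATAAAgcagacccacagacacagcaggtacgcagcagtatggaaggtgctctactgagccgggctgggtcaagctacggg
Pck1: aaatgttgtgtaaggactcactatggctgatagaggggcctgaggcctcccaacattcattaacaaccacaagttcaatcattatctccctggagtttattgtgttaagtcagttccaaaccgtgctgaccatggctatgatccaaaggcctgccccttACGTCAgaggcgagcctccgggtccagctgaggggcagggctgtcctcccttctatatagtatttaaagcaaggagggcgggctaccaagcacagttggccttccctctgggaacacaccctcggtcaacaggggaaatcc
G6pc: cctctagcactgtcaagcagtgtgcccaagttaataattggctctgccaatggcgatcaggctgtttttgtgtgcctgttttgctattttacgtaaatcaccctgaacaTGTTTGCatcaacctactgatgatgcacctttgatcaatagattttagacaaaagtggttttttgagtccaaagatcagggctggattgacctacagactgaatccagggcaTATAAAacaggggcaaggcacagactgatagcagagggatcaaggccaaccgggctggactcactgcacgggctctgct
Pcx: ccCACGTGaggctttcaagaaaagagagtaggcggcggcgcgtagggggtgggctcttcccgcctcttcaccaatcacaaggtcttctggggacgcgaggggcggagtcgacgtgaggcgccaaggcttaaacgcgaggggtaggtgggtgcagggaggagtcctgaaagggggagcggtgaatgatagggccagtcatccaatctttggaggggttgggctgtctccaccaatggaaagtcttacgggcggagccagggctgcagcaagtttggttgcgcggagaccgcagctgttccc
Capitals mark short motifs found by a search of the letters. In *Pklr* they are CACGGG and CCCGTG with 5 bases between them, 170 bases before the start, the arrangement known as the carbohydrate response element. These exact letters were found in 1 of 32851 promoter windows of the same length (0.00304%), that of *Pklr*. They were searched as they stand there, not as the looser consensus of the element, so the share does not show how rare such elements are. In *Pck1* they are ACGTCA, the core of a cyclic AMP response element, 91 bases before the start, a motif that 7.51% of windows held on either strand. In *G6pc* they are TGTTTGC, a forkhead core, 141 bases before the start, held by 5.07% of windows on either strand, and in *Pcx* they are CACGTG, an E box that reads the same on both strands, 248 bases before the start, held by 7.15%. The letters TATAAA, searched on the sense strand and present in 8.32% of windows, stood 31 bases before the start of *Pklr* and 29 before that of *G6pc*. A match is a run of letters and does not show that a factor binds there.

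Total counts were between 50456404 and 59697241 per liver. The targeted transcript, *Srsf10*, measured 34.3, 34.0, 41.01 and 36.5 CPM (counts scaled to the TMM-adjusted size of each library) in livers 1 to 4 labelled *Srsf10-kd* against 31.6, 33.7, 35.3 and 30.9 in *Ctrl*, so it was not lower in the livers labelled as the knockdown (log2 fold change 0.15 ± 0.10 SE, adjusted p = 0.378). The paper reports lower SRSF10 protein and RNA, by western blot and qPCR, in livers of mice given the hairpin against *Srsf10*. Because these counts do not show it, directions below are those of the labels. The liver labelled *Srsf10-kd* 3 stood apart on the first principal component of all genes tested (44.8% of variance), at 67.4 against -41.8 to 11.5 in the others. The slope of log2 CPM on log2 transcript length was 0.427 to 0.584 in livers labelled *Srsf10-kd* and 0.578 to 0.741 in *Ctrl*, and *Ctrl* 3 was the one *Ctrl* liver inside the range of the others. A lower slope means fewer counts on long transcripts relative to short ones. In whole liver, fewer cells of a type and less RNA per cell cannot be told apart. Summed over 8 hepatocyte markers, which were highly expressed in every liver, CPM was 100600 to 115700 in livers labelled *Srsf10-kd* and 86290 to 112200 in *Ctrl*, a sum that *Alb* (albumin) dominates. Of the 8, 6 had a log2 fold change below 0, with a median of -0.15, and *Apob*, an apolipoprotein, was lower without overlap (-0.93, adjusted p = 0.115 by edgeR and 0.0029 by DESeq2). The 6 cholangiocyte markers, all 6 with a log2 fold change above 0, summed to 46.9 to 69.2 and 31.8 to 39.3 CPM, and the 5 red cell markers, 4 of them above 0, to 293.8 to 799.7 and 291.5 to 380.0 CPM. The 5 skeletal muscle markers summed to 0.642 to 17.6 CPM in *Ctrl*, highest in *Ctrl* 4, and to 1.07 to 4.83 in livers labelled *Srsf10-kd*. No marker in these lists is a member, and their part in the results below was not tested.

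None of the 39 members passed edgeR's quasi-likelihood test at a Benjamini-Hochberg adjusted p of 0.05, where 11 of the 15491 genes did (0.071%, all 11 lower in livers labelled *Srsf10-kd*). At an unadjusted p under 0.05 stood 1 member, *Pcx*, against 21.8% of all genes. With DESeq2 0 members were called, against 5.75% of genes, and 2 had an unadjusted p under 0.05, against 23.6%, and with limma-voom and quality weights 2 were called, *Pcx* and *Phka2*, both lower, against 11.7% of genes. In no member did all 4 livers of one group lie beyond all 4 of the other, whereas 14.3% of all genes had groups that did not overlap (7.53% lower and 6.73% higher in livers labelled *Srsf10-kd*). Apart from the edgeR calls, too few to compare, each share was smaller among the members than among all genes, a description for which no test was made.

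The fitted differences were small. Of the 39 log2 fold changes of livers labelled *Srsf10-kd* over *Ctrl*, 24 were below 0 and 15 above, or 61.5% below 0 against 48.7% of all genes, and their median was -0.07 against 0.01 for all genes. The 95% interval of the fold change lay within 2-fold either way for 36 members and within 1.5-fold either way for 23, so for these the size of a difference is bounded. The exceptions to the wider bound were *Khk*, *Gys2* and *Ppp1r3g*. The plot of fold changes gives all 39 with their intervals.

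**Figure D1:**
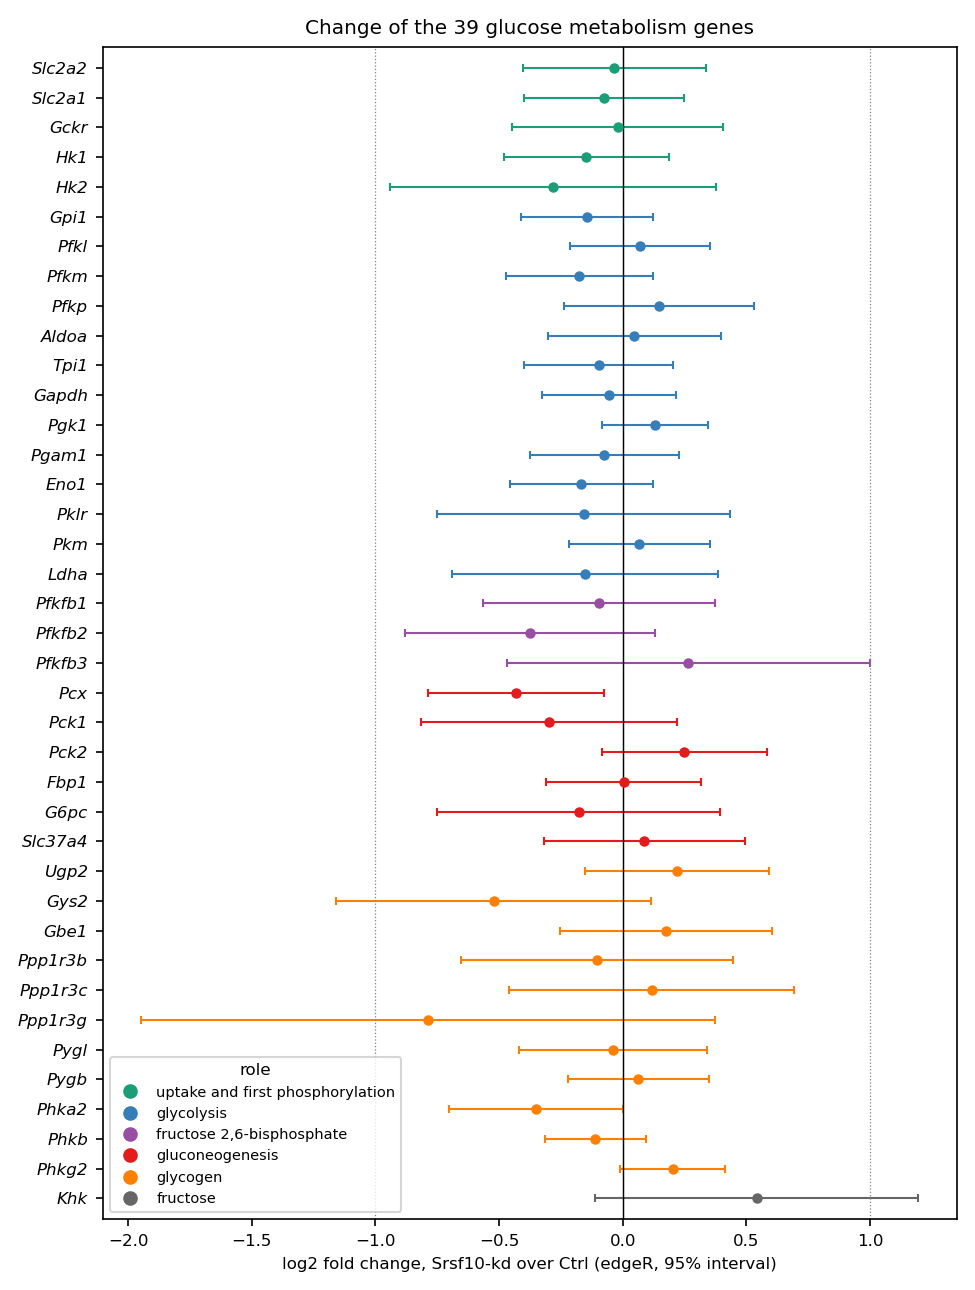
Log2 fold change of each of the 39 genes, livers labelled Srsf10-kd over Ctrl, from edgeR, with its 95% interval (horizontal bar, n = 4 livers a group). Genes are in pathway order and coloured by role, and dotted lines mark -1 and 1. The interval of Pcx lies below 0 (-0.79 to -0.08), those of the other 38 include 0.

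Uptake and first phosphorylation came out below 0 in all 5 members, with log2 fold changes from -0.28 (*Hk2*) to -0.02 (*Gckr*) and a median of -0.08, and none passed the test. With the trend of fold change on transcript length removed, *Slc2a2* and *Gckr* were above 0 (0.14 and 0.066). *Slc2a2* encodes GLUT2, the transporter through which hepatocytes take up and release glucose. It measured 318, 296, 320 and 244 CPM in *Ctrl* 1 to 4 and 250, 379, 286 and 236 in livers 1 to 4 labelled *Srsf10-kd*. The highest and the lowest liver both carried the *Srsf10-kd* label, and the log2 difference was -0.03 (95% interval -0.40 to 0.33, adjusted p = 0.915, edgeR). *Gckr* encodes the regulatory protein that holds the main glucose-phosphorylating enzyme of hepatocytes in the nucleus. It measured 168, 145, 97.2 and 131 CPM in *Ctrl* and 108, 174, 127 and 124 in livers labelled *Srsf10-kd*, groups that overlapped over nearly their whole range (log2 difference -0.02, interval -0.45 to 0.40). *Slc2a1* (GLUT1), *Hk1* and *Hk2* stayed at or under 14.4 CPM in every liver.

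Of the 13 glycolytic members 8 were below 0 and 5 above. Their median log2 fold change was -0.07, and they ranged from -0.18 (*Pfkm*) to 0.15 (*Pfkp*). *Pfkl*, the liver form of phosphofructokinase and the committed step of glycolysis, measured 35.8, 35.1, 28.4 and 27.5 CPM in *Ctrl* and 29.5, 37.4, 35.3 and 30.8 in livers labelled *Srsf10-kd*. The groups overlapped, and the log2 difference was 0.07 (interval -0.21 to 0.35). *Pklr* measured 119, 91.4, 95.4 and 52.0 CPM in *Ctrl* and 65.9, 119, 68.1 and 68.2 in livers labelled *Srsf10-kd*. In the second group liver 2 was the high one and the other 3 lay between 65.9 and 68.2, and in *Ctrl* liver 4 was the low one. Its log2 difference of -0.16 had an interval from -0.75 to 0.43. About 19.9% of the 75-base stretches of *Pklr* exons also occur in *Hcn3*, an overlapping gene on the other strand, and the strand setting of the counting was not given.

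*Ldha*, the lactate dehydrogenase subunit that interconverts pyruvate and lactate, was the most abundant glycolytic member, with 1423 to 2291 CPM in *Ctrl* and 1225 to 2264 in livers labelled *Srsf10-kd*. *Gpi1* (phosphoglucose isomerase), *Aldoa* (aldolase A) and *Pkm* differed by -0.14, 0.05 and 0.07 on the log2 scale. *Gapdh*, often used as a reference gene, differed by -0.06 on the log2 scale (interval -0.33 to 0.21). *Tpi1* (triose phosphate isomerase), *Pgk1* (phosphoglycerate kinase), *Pgam1* (phosphoglycerate mutase) and *Eno1* (enolase), the enzymes of the common lower pathway, lay between -0.17 and 0.13. Several of these have near-identical copies, so their counts are uncertain. Of their 75-base stretches, 52.8% for *Pgk1*, 34.9% for *Pgam1*, 23.0% for *Eno1* and 22.6% for *Gapdh* occur in other annotated genes.

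The 3 members that encode 6-phosphofructo-2-kinase/fructose-2,6-bisphosphatase set the level of fructose 2,6-bisphosphate, which speeds glycolysis and slows gluconeogenesis. *Pfkfb1*, the liver form, measured 42.7, 46.2, 44.2 and 59.1 CPM in *Ctrl* and 38.5, 32.2, 66.1 and 43.0 in livers labelled *Srsf10-kd*. The value of liver 3 in the second group exceeded all others, and the log2 difference was -0.10 (interval -0.57 to 0.37). *Pfkfb2* and *Pfkfb3* differed by -0.37 and 0.27 on the log2 scale, and neither passed the test (adjusted p = 0.336 and 0.632, edgeR). *Pfkfb3* was among the most variable members, with a 3.06-fold span between its lowest and highest liver.

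Gluconeogenesis held the member with the smallest p, *Pcx* (ENSMUSG00000024892, chr19:4510472-4621752, plus strand, GRCm38). It measured 779, 795, 637 and 849 CPM in *Ctrl* 1 to 4 and 628, 678, 437 and 527 in livers 1 to 4 labelled *Srsf10-kd*. Only *Ctrl* 3 fell within the range of the second group, and there only below liver 2. Means were 765 ± 90.6 and 567 ± 107 CPM (SD, n = 4), a log2 difference of -0.43 ± 0.16 SE (interval -0.79 to -0.08). Its adjusted p was 0.178 with edgeR, 0.109 with DESeq2 and 0.0397 with limma-voom, and the two-sided exact permutation p over livers was 0.0571, where the smallest this design allows is 0.0286. *Pcx* has a longest transcript of 4148 bases, and with the trend of fold change on transcript length removed its log2 difference was -0.34 (adjusted p = 0.267, edgeR).

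*Pck1* measured 2504, 3112, 2129 and 3699 CPM in *Ctrl* and 2880, 2425, 1485 and 2509 in livers labelled *Srsf10-kd*. Liver 3 was the lowest of its group under both labels, and the log2 difference of -0.30 had an interval from -0.82 to 0.22 (adjusted p = 0.440, edgeR). *Pck2*, the mitochondrial form, was at 4.32 to 7.20 CPM, with a log2 difference of 0.25 (interval -0.09 to 0.58). *Fbp1*, fructose-1,6-bisphosphatase, measured 922, 977, 1180 and 1352 CPM in *Ctrl* and 1130, 1131, 1051 and 1130 in livers labelled *Srsf10-kd*. All 4 of the latter lay inside the *Ctrl* range, and the log2 difference was 0.0036 (interval -0.31 to 0.32), or -0.00060 scaled by library size alone.

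*G6pc* measured 223.5, 231.6, 342.5 and 246.5 CPM in *Ctrl* and 341.3, 249.9, 139.1 and 192.4 in livers labelled *Srsf10-kd*. The highest liver of each group reached nearly the same level, and the log2 difference was -0.18 (interval -0.75 to 0.39, adjusted p = 0.684, edgeR). *Slc37a4*, the transporter that brings glucose 6-phosphate to the glucose-6-phosphatase in the endoplasmic reticulum, had a log2 difference of 0.09. The 6 gluconeogenic members therefore divided 3 above and 3 below 0, with a median of -0.09. The plot of single livers sets these genes beside the glycolytic and glycogen members.

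**Figure D2:**
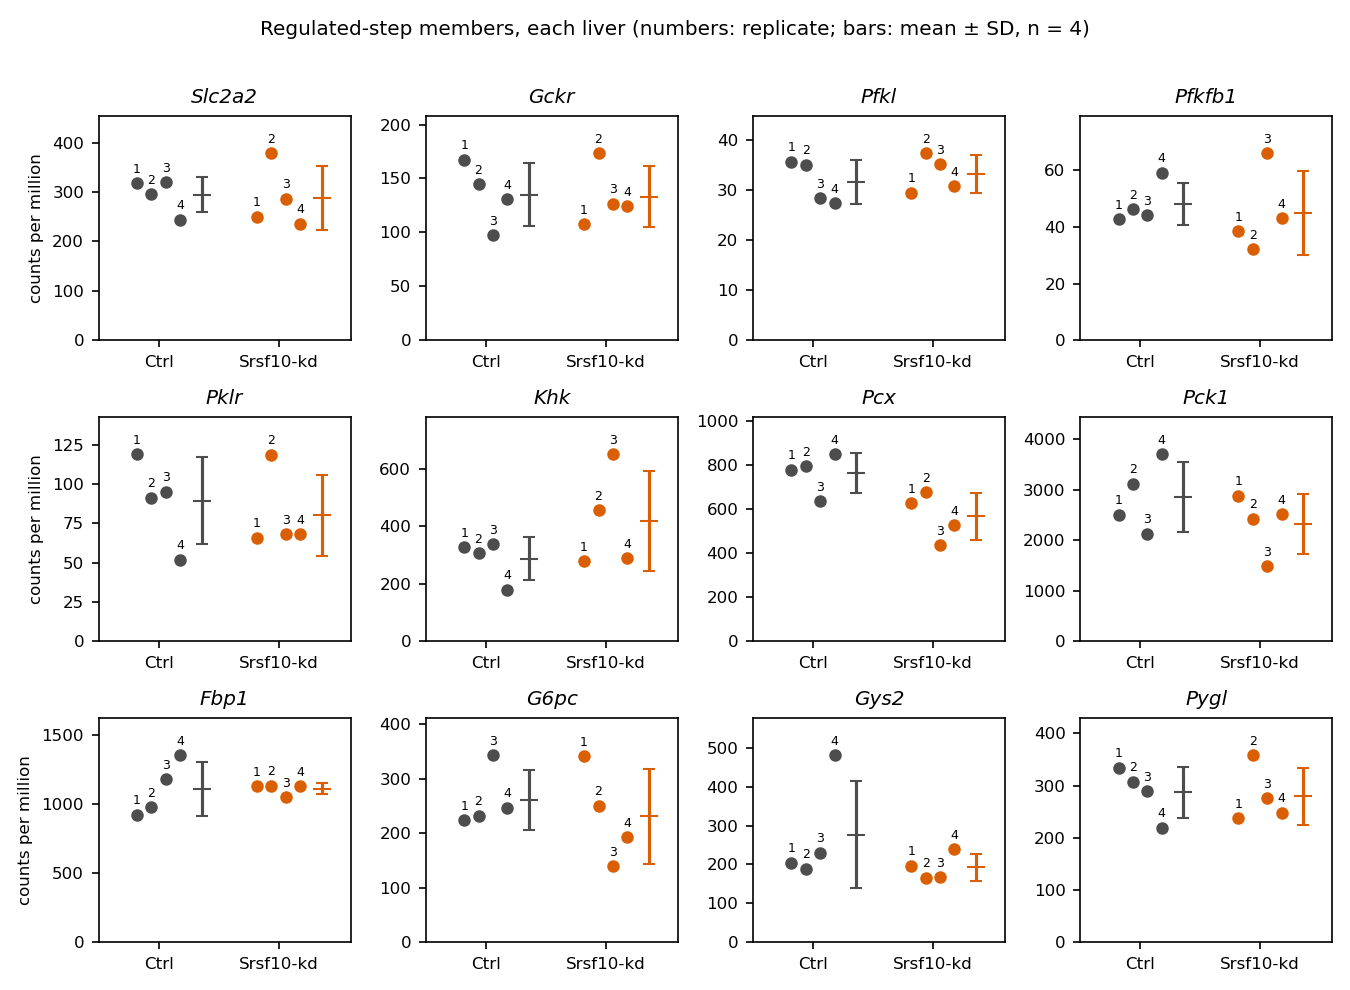
CPM (vertical axis, from 0, a separate scale in each panel) of 12 members at regulated steps, 1 point a liver with its replicate number, and the mean ± SD of 4 livers at the right of each group. The groups overlap in all 12 panels, and Gys2 shows Ctrl 4 at 480 CPM, above all other livers.

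Among the 11 glycogen members 5 were above 0 and 6 below. The median of their log2 fold changes was -0.04. *Gys2*, the liver glycogen synthase, measured 204, 190, 230 and 480 CPM in *Ctrl* and 197, 166, 168 and 240 in livers labelled *Srsf10-kd*. The single liver *Ctrl* 4 lay far above the rest. The log2 difference of -0.52 (interval -1.16 to 0.12, adjusted p = 0.296, edgeR) was -0.11 without that liver. *Pygl*, the liver glycogen phosphorylase that starts glycogen breakdown, measured 334, 307, 289 and 220 CPM in *Ctrl* and 238, 358, 275 and 248 in livers labelled *Srsf10-kd* (log2 difference -0.04, interval -0.42 to 0.34).

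Phosphorylase kinase activates the phosphorylase, and 3 of its subunits are members. *Phka2* (ENSMUSG00000031295, chrX:160502166-160598878, plus strand), the liver form of the alpha subunit, measured 22.4, 23.4, 16.9 and 24.4 CPM in *Ctrl* and 17.6, 20.1, 13.0 and 17.6 in livers labelled *Srsf10-kd*. *Ctrl* 3 was again the one *Ctrl* liver within the range of the other group. The log2 difference was -0.35 ± 0.16 SE, with an adjusted p of 0.230 by edgeR, 0.217 by DESeq2 and 0.0493 by limma-voom, and an exact permutation p of 0.114. Without both livers numbered 3 its adjusted p was 0.0425 by edgeR, at a log2 difference of -0.35. The longest transcript of *Phka2* has 4341 bases, and with the length trend removed the difference was -0.24 (adjusted p = 0.383, edgeR).

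*Phkg2*, the catalytic gamma subunit of liver and testis, had the opposite sign, with 23.6 to 26.8 CPM in *Ctrl* and 26.6 to 31.0 in livers labelled *Srsf10-kd* (log2 difference 0.20, interval -0.01 to 0.41, adjusted p = 0.245, edgeR). Scaled by library size alone, it was the 1 member of 39 whose groups did not overlap. The share of all genes was not counted at that scaling. With TMM scaling it was 14.3%, and the groups of *Phkg2* overlapped. Of its 75-base stretches 16.6% also occur in other genes, most of them in *Ccdc189*, which overlaps it on the other strand. *Phkb*, the beta subunit, differed by -0.11.

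The enzymes that build glycogen, *Ugp2* (UDP-glucose pyrophosphorylase) and *Gbe1* (branching enzyme), had log2 differences of 0.22 and 0.18. *Ppp1r3b*, *Ppp1r3c* and *Ppp1r3g*, targeting subunits that bring protein phosphatase 1 to glycogen, had -0.10, 0.12 and -0.79. The last was -0.15 without *Ctrl* 4, -0.51 without the liver labelled *Srsf10-kd* 3 and 0.072 by limma-voom. *Ppp1r3g* had the widest interval of the members (-1.95 to 0.37) and the lowest single value of any member, with 1.10 to 4.69 CPM in *Ctrl* and 0.506 to 2.17 in livers labelled *Srsf10-kd*, an 8.72-fold span.

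*Khk* encodes ketohexokinase, which takes fructose into hepatic metabolism. It measured 328, 306, 339 and 180 CPM in *Ctrl* and 279, 457, 651 and 289 in livers labelled *Srsf10-kd*. The group labelled *Srsf10-kd* held the 2 highest livers and *Ctrl* the lowest, but the other values mixed. Its log2 difference of 0.54 ± 0.29 SE was the largest above 0 among the members, with an interval from -0.11 to 1.19 and an adjusted p of 0.291 (edgeR). The single-liver span was 3.61-fold. The log2 difference was 0.25 without the liver labelled *Srsf10-kd* 3.

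Levels were compared between members per length of the longest annotated transcript and scaled to the same sum in each liver, as in TPM. On this per-length scale *Pck1* was the highest member in *Ctrl* at 2145 ± 576 (SD, n = 4), followed by *Ldha* at 2099 ± 452 and *Fbp1* at 1522 ± 265. The first 2 differed by less than their spread, and per length of all exons together *Ldha* (1392) came below *Fbp1* (1599), with *Pck1* at 2065. *Eno1* then stood at 146 in place of 321, so this order depends on the length used. *Tpi1*, *Pcx*, *Khk*, *Gapdh* and *Eno1* followed between 321 and 459, and the lowest members were *Hk1* at 1.57, *Pfkp* at 0.724 and *Hk2* at 0.499. Livers labelled *Srsf10-kd* had the same 3 members at the top, where *Pck1* was at 1629 ± 516, *Ldha* at 1765 ± 603.5 and *Fbp1* at 1416 ± 179.

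Per length of the longest transcript, liver isoenzymes made up most of the families named next in every sample. *Slc2a2* made up 90.8% to 95.5% of the per-length sum with *Slc2a1*, *Pck1* 99.8% to 99.9% of that with *Pck2*, *Pygl* 98.4% to 99.1% of that with *Pygb*, the brain phosphorylase, and *Pklr* 71.0% to 85.6% of that with *Pkm*, the pyruvate kinase of muscle and most other tissues. *Pfkl* took 54.5% to 62.0% among *Pfkl*, *Pfkm* and *Pfkp* in *Ctrl* and 58.8% to 68.9% in livers labelled *Srsf10-kd*. Per length of all exons together, the mean share of *Pfkl* in *Ctrl* was 47.8% and that of *Pfkm* 49.8%, so their order depends on it too. In all 8 isoenzyme families the ranges of the groups overlapped.

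**Figure D3:**
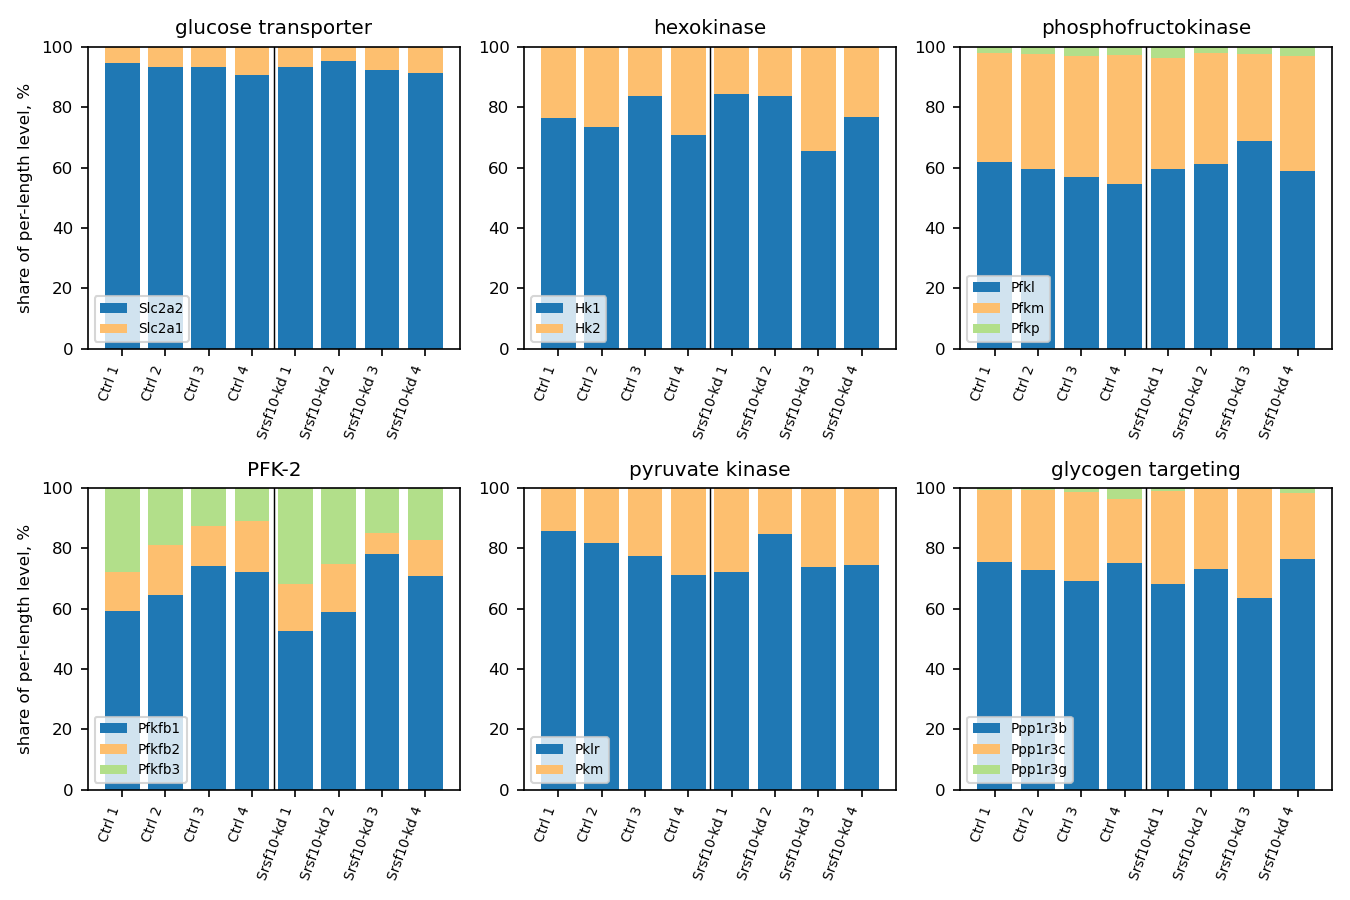
Share of each isoenzyme in the per-length level of its family (vertical axis, percent from 0 to 100), 1 bar a liver, for 6 families, with a line between the 4 Ctrl and the 4 livers labelled Srsf10-kd. Slc2a2, Pklr, Pfkfb1 and Ppp1r3b take most of their families in every liver, and the ranges of the groups overlap in every panel.

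For 31 of the 39 members the log2 difference between labels was smaller than the pooled SD of log2 CPM within groups, and the 8 others were *Pcx*, *Khk*, *Gys2*, *Phka2*, *Phkg2*, *Phkb*, *Pck2* and *Pgk1*. The 4 *Ctrl* livers held the highest value of 21 members and the lowest of 20, and the 4 livers labelled *Srsf10-kd* the highest of 18 and the lowest of 19. Single livers stood out within each group. *Ctrl* 4 was the highest of the 8 for 11 members, among them *Pck1*, *Pcx*, *Fbp1*, *Gys2*, *Aldoa* and *Hk2*, and the lowest for 7, among them *Pklr*, *Pfkl*, *Khk*, *Pygl*, *Gbe1* and *Ugp2*. It was the highest for 21.2% and the lowest for 20% of all genes tested. The liver labelled *Srsf10-kd* 3 was the lowest for 14 members, among them *Pck1*, *Pcx*, *G6pc*, *Phka2* and *Gapdh*, and the highest for 6, among them *Khk*, *Pfkfb1*, *Slc37a4* and *Ugp2*. Over all genes tested it was the lowest for 26.9% and the highest for 29.8%. The liver labelled *Srsf10-kd* 2 was the highest for 8 members, which include *Slc2a2*, *Gckr*, *Pfkl*, *Pygl* and *Ppp1r3b* (20.5% of members, against 8.07% of all genes). *Ctrl* 3 was also the highest for 8 members (20.5%, against 12.6% of all genes). That labelled *Srsf10-kd* 4 was the highest for none and the lowest for 1, against 6.86% and 6.61% of all genes.

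**Figure D4:**
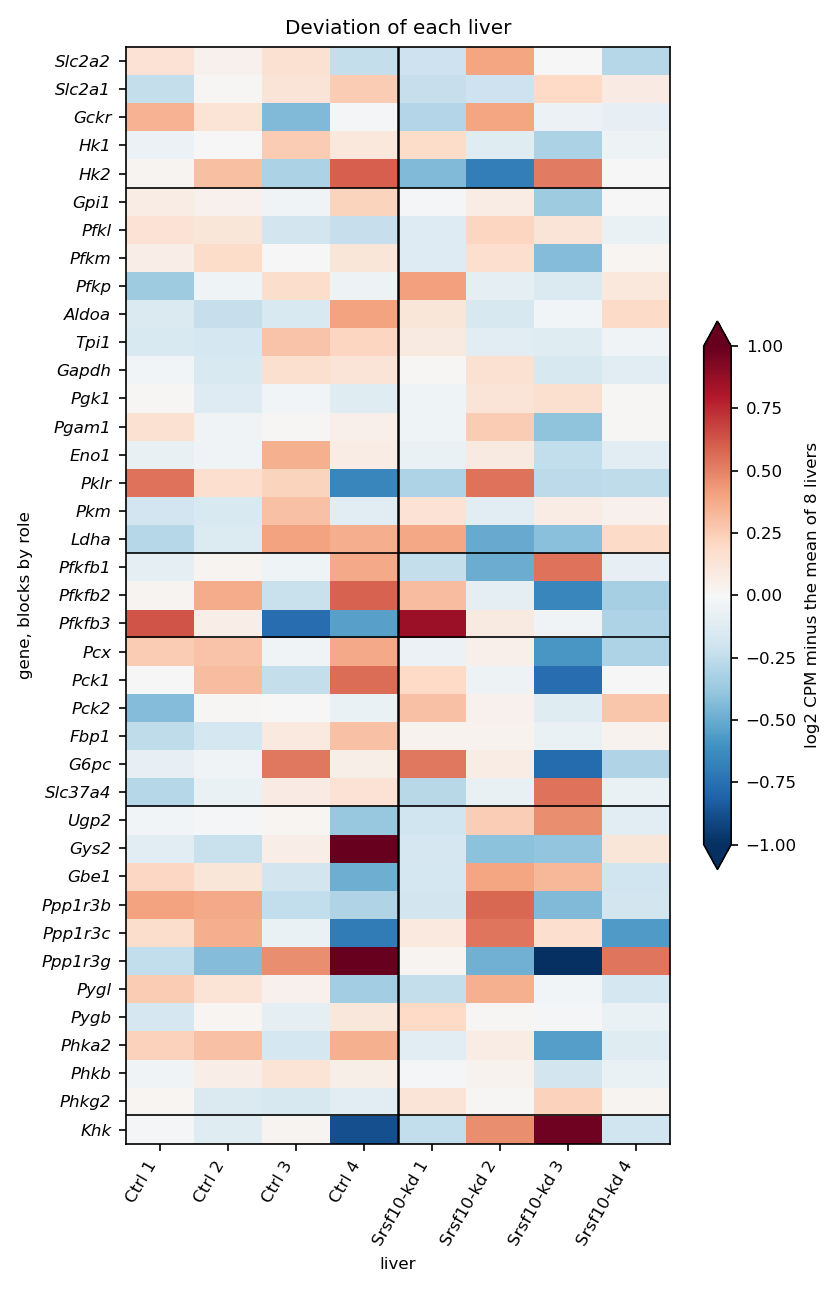
Deviation of each liver (columns) from the mean of the 8 livers for each member (rows, in blocks by role), in log2 CPM, with red above and blue below the mean. Colours end at -1 and 1, which Ppp1r3g, Gys2 and no other member pass, and Ctrl 4 and the liver labelled Srsf10-kd 3 show the deepest colours.

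The members also differed in how steady they were. *Pgk1*, *Phkb* and *Gapdh* spanned 1.22-fold, 1.24-fold and 1.25-fold from the lowest to the highest of the 8 livers. At the other end stood *Ppp1r3g*, *Khk*, *Pfkfb3* and *Gys2*, the last with a 2.90-fold span. *Pck1*, *G6pc*, *Pklr* and *Pcx*, whose promoters are printed above, spanned 2.49-fold, 2.46-fold, 2.29-fold and 1.945-fold. Among members whose promoters are not printed, *Hk2*, *Pfkfb2* and *Ppp1r3c* spanned 2.445-fold, 2.36-fold and 2.35-fold.

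Of 41 other genes of these pathways, listed by their place in them, 35 passed the filter. None was called by edgeR or DESeq2, against 0.071% and 5.75% of all genes. Their median log2 fold change was -0.07, with 13 above and 22 below 0. None had groups that did not overlap, against 14.3% of all genes. By limma-voom 2 were called, against 11.7% of all genes, among them *Pgm2*, a phosphoglucomutase (log2 fold change 0.29 in edgeR, adjusted p = 0.0215 by limma-voom). At an unadjusted p under 0.05 by edgeR stood 3, against 21.8% of all genes, among them *Pgm2* and *Slc2a5*, the fructose transporter GLUT5. *Slc2a5* measured 6.08, 4.25, 9.49 and 11.2 CPM in *Ctrl* and 4.27, 6.07, 3.87 and 5.45 in livers labelled *Srsf10-kd*. Its log2 difference was -0.65 (adjusted p = 0.221 by edgeR and 0.607 by limma-voom).

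Of 18 genes for regulators of the pathway, all were tested, none was called by edgeR, where 1 higher and 2 lower had an unadjusted p under 0.05, 2 were called by DESeq2 and 3 by limma-voom. Over all genes these tools called 5.75% and 11.7%, and groups did not overlap for 14.3%, against 3 of the 18 regulators, so the counts say nothing particular to the list. *Irs2*, an adaptor through which the insulin receptor signals in hepatocytes, measured 9.13, 9.50, 5.13 and 13.8 CPM in *Ctrl* and 3.71, 1.94, 2.02 and 3.47 in livers labelled *Srsf10-kd*. Every liver of the second group lay below every *Ctrl* liver, with a log2 difference of -1.75 ± 0.32 SE (adjusted p = 0.0826 by edgeR and 2.5e-05 by DESeq2). *Cebpb*, a transcription factor active at gluconeogenic promoters, measured 154, 123, 89.1 and 112 CPM in *Ctrl* and 183, 166, 246 and 184 in livers labelled *Srsf10-kd*, again without overlap (log2 difference 0.71 ± 0.18 SE, adjusted p = 0.119 by edgeR and 0.0156 by DESeq2). *Creb1*, which binds cyclic AMP response elements, lay lower without overlap (log2 difference -0.18, adjusted p = 0.275, edgeR). *Nr3c1*, the glucocorticoid receptor, was called by limma-voom only (-0.27 in edgeR, adjusted p = 0.0385 by limma-voom). *Irs1*, another adaptor of the insulin receptor, measured 15.5 to 29.05 CPM in *Ctrl* and 13.0 to 25.3 in livers labelled *Srsf10-kd*. Its groups overlapped (log2 difference -0.11, adjusted p = 0.784, edgeR).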

How the data were processed

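Livers were flash frozen, RNA was extracted with TRIzol and a column kit with DNase, and directional poly(A) libraries were sequenced from both ends. The authors aligned reads to GRCm38 with STAR 2.7.7a and deposited its raw counts per gene without normalization. The annotation and the strand column are not given in the sources used here. Of 45706 identifiers, 45143 were in GENCODE M21, which gave symbols and lengths, and 563 were not. The members and all gene lists were chosen with earlier results of these data known.

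Counts were fitted in R 4.3.3 with edgeR 4.0.16 (TMM, filterByExpr, quasi-likelihood test on group, two-sided, Benjamini-Hochberg adjustment over 15491 genes, adjusted p under 0.05). The study used DESeq2. Here DESeq2 1.42.0 and limma-voom 3.58.1 were alternatives, with 25 genes left at NA by DESeq2. CPM values use TMM library sizes, and intervals are 95%. Every member was counted, with closer detail for those past any of these tests, those at regulated steps and isoenzyme families. Other pathway genes and regulators were named if past any of these tests or if their groups did not overlap. *Slc2a5* was named for its unadjusted p alone, and *Irs1* as another adaptor beside *Irs2*. Markers of hepatocytes, cholangiocytes, red cells and skeletal muscle were given mainly as sums and counts. Lists for Kupffer cells and macrophages, endothelial cells, stellate cells and fibroblasts, leukocytes and adipocytes were also compared but are not described. Thus not every marker past a test or without overlap was named. No pair of the 28 was a duplicate (lowest chi-square per degree of freedom 46.5). Each p of these fits sets the difference between labels against the spread between livers, estimated with information shared across genes. On simulated counts of 15278 genes with 200 changed by 1.5 on the log2 scale, for the same comparison, edgeR recovered 175, DESeq2 181 and limma-voom 172, with 7, 29 and 7 false calls. That change was larger than the fitted one of any member, the farthest from 0 being -0.79 (*Ppp1r3g*). The recovery therefore does not show how often changes as small as those of the members would be called. Each simulated gene was also drawn independently of the others. Deviations that many genes share in 1 liver, as in the liver labelled *Srsf10-kd* 3, were thus absent. The counts of false calls therefore need not hold for these livers. Total counts were at least 50456404 a liver, and the scarcest member value, *Ppp1r3g* in the liver labelled *Srsf10-kd* 3, rested on 26 counts. Stretches of 75 bases shared between genes were counted in GENCODE M21 exons. The values of 1 listed gene that is no member are not reported here.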

Additional observations from a re-analysis of the deposited data

Results flagged for a closer look

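Of 78 groups of 4 livers (39 members under both labels), 6 held a liver whose gap to the next exceeded 0.829 of the whole range, where chance flags about 1 in 20, or 3.9 of 78. *Ctrl* 4 was that liver for 3 genes. It measured 480.2 CPM of *Gys2*, the liver glycogen synthase, where the other *Ctrl* livers had 189.6 to 230.4. It measured 145.2 CPM of *Aldoa*, aldolase A, against 93.2 to 99.3. *Ctrl* 4 also had the highest sum of 5 skeletal muscle markers (17.6 CPM), whose part was not tested. The same liver measured 252.6 CPM of *Ugp2*, the UDP-glucose pyrophosphorylase, against 322.5 to 333.5. *Ctrl* 3 measured 23.4 CPM of *Pkm* against 16.8 to 17.8. The liver labelled *Srsf10-kd* 2 measured 118.7 CPM of *Pklr* against 65.9 to 68.2, and that labelled *Srsf10-kd* 3 measured 1051 CPM of *Fbp1* against 1130 to 1131, a gap that is small in size.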

How the results depend on the processing

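No edgeR or DESeq2 setting that kept all 8 livers, and none that left out 1 liver, called a member. The exceptions among the 17 alternatives were limma-voom, with 2 members, and the fit without both livers numbered 3, chosen after seeing the data, with 1 (*Phka2*). Scaling by library size alone gave 1 member of 39 without overlap (*Phkg2*), where the share over all genes was not counted. The count over all genes, 11 in edgeR, was 890 with DESeq2, 1814 with limma-voom, 46 without the filter on low counts, 6 with the length trend removed, 1342 without both livers numbered 3, and between 0 and 544 when 1 liver was left out, the highest without *Ctrl* 3. It was 0 without *Ctrl* 2 and without each of the livers labelled *Srsf10-kd* 1, 2 and 4, where at an unadjusted p under 0.05 stood 2154, 3450, 3656 and 2768 genes, 64 without the liver labelled *Srsf10-kd* 3, 4 without *Ctrl* 1 and 5 without *Ctrl* 4. With the replicate number as a block it was 59 genes and 0 members. The correlations of same-numbered livers were -0.18, 0.21, 0.27 and 0.22, and not every liver correlated best with its own number, so the numbers were not taken to pair the livers.

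Of the 39 log2 fold changes, 18 kept their sign under all 17 alternatives, among them those of *Pcx*, *Phka2*, *Pck1*, *Gys2* and *Khk*, and 21 did not. A kept sign is not a kept size. In that order these genes had -0.43, -0.35, -0.30, -0.52 and 0.54 in edgeR. By limma-voom they had -0.42, -0.35, -0.18, -0.15 and 0.16. With limma-voom the sign turned for *Tpi1* (0.067), *Gapdh* (0.029), *Ldha* (0.16), *Pfkl* (-0.079), *Slc37a4* (-0.023), *G6pc* (0.046), *Ppp1r3g* (0.072), *Gbe1* (-0.080) and *Ppp1r3c* (-0.18). With the length trend removed it turned for *Pgk1* (-0.016), *Slc2a2* (0.14), *Gckr* (0.066), *Aldoa* (-0.14), *Ppp1r3b* (0.00096), *Phkb* (0.059) and *Fbp1* (-0.19). *Fbp1* also turned to -0.00060 with library size alone and -0.0058 without the filter. Without both livers numbered 3 the sign turned for *Slc2a2* (0.0095), *Tpi1* (0.013), *Gapdh* (0.032), *Ldha* (0.066), *Pfkl* (-0.0093), *Slc37a4* (-0.079), *G6pc* (0.16) and *Pgam1* (0.022). Leaving out 1 liver gave ranges that cross 0 for *Pfkfb3* (-0.032 to 0.59), *Pfkfb1* (-0.34 to 0.033), *Slc2a2* (-0.20 to 0.050), *Pklr* (-0.41 to 0.010), *Gckr* (-0.18 to 0.10), *Aldoa* (-0.023 to 0.21), *Ppp1r3b* (-0.36 to 0.016), *Slc37a4* (-0.11 to 0.19), *G6pc* (-0.43 to 0.0015), *Fbp1* (-0.076 to 0.11), *Pygl* (-0.18 to 0.039), *Ppp1r3c* (-0.059 to 0.29) and *Pgam1* (-0.18 to 0.034). The cause was not tested in any of these. The lowest single count of any member was in *Ppp1r3g*, with 26 to 267 counts a liver, and *Hk2* had 37 to 102.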
